A study of Homo sapiens with 12 samples.

Results

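Transcripts of 9 genes of matrix proteolysis were followed in HEYA8 cells, an established human ovarian cancer line, after 48 h with colforsin daropate. The genes were the matrix metalloproteases MMP1, MMP2, MMP3, MMP10 and MMP14, the tissue inhibitors of metalloproteases TIMP1, TIMP2 and TIMP3, and PLAU, which encodes urokinase. They were chosen by name, with the dose results of these same libraries already known. The tests over dose below therefore describe these libraries and are not independent support. Of the 9 genes, 8 were found among the 21207 genes of the table by their Ensembl identifiers, and MMP10 was not analysed here. Total RNA was sequenced from cells given colforsin daropate at 1, 5 or 10 µM and from cells given vehicle, with 3 libraries in each of the 4 groups. All groups were the same line with no genetic change named in the labels. The drug, made from forskolin and soluble in water, switches on adenylyl cyclase and so raises cyclic AMP. Each library also carries a number in its label, 6, 8 or 11, that recurs in every group. Where 3 values of a group are given in a row, they stand in the order of label numbers 6, 8 and 11.

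Matrix metalloproteases are zinc-dependent enzymes made as inactive precursors. MMP1, the interstitial collagenase, cuts fibrillar collagen. MMP2 is a gelatinase, and MMP14 is a membrane-anchored protease that activates the MMP2 precursor at the cell surface with TIMP2 as the bridge. TIMPs close the active site of these enzymes, and TIMP3 is the one that stays bound to the extracellular matrix. Urokinase turns plasminogen into plasmin, which degrades fibrin and activates several MMP precursors. Genes of this kind are studied in ovarian cancer because tumour cells must cross a mesothelial lining and its matrix to spread in the abdomen.

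The 4 matrix metalloproteases analysed here share the histidine-rich stretch of the catalytic domain that holds the zinc ion. The coding bases of that stretch, read from GENCODE 29 transcripts (GRCh38) as the longest open reading frame, are given with the codons of the 3 zinc-binding histidines in capitals.
MMP1: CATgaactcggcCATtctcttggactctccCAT
MMP3: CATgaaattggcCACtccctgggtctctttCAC
MMP2: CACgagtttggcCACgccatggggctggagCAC
MMP14: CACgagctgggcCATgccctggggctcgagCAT
The stretch covered codons 218 to 228 in MMP1, which lies on chromosome 11, and codons 218 to 228 in MMP3, its neighbour there. In MMP2, on chromosome 16, it covered codons 403 to 413, and in MMP14, on chromosome 14, codons 239 to 249. Of its 33 bases, MMP3 shared 24 with MMP1, MMP14 shared 23 and MMP2 shared 18.

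Expression is given as the authors' variance-stabilised value, which runs close to a log2 scale for abundant genes and flattens towards a minimum of 4.86 where a gene has no reads. Single reads form visible steps in the low values, so reads and normalised counts per gene could be recovered from the curve. Recovered depth on genes ran between 23.9 megareads, in vehicle library 6, and 48.3 megareads. Values of 10 and above are rounded to steps of 0.1, so a normalised count there can be off by up to 3.53%. Among markers of epithelial cells or ovarian carcinoma, 8 of 10 were analysed. EPCAM and KRT19 had at most 20 reads in every library. The summed count of these markers was 40458 to 68412 in vehicle, and 41597 to 62157, 40192 to 53800 and 40500 to 42861 at 1, 5 and 10 µM. Of 5 leukocyte markers, the 3 analysed (PTPRC, CD68 and CD14) had at most 20 reads in every library. The 3 fibroblast markers analysed, of 5 listed, summed to 247 to 860 counts in vehicle, and 346 to 1122, 319 to 1292 and 412 to 1600 at the 3 doses. The 3 endothelial markers analysed, of 4, summed to 1870 to 7909 counts in vehicle, and 3892 to 8995, 4136 to 5855 and 3868 to 4425 at the doses. The 3 mesenchymal markers VIM, CDH2 and FN1 summed to 592364 to 1120380 counts in vehicle, and 1493260 to 1916950, 1359930 to 1882850 and 1528950 to 2289980 at the doses, with no overlap with vehicle. Each sum can be carried by 1 abundant gene, so it does not show that every marker of a list is expressed. The part of these marker levels in the results below was not tested.

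Per kilobase of exon, the vehicle libraries held 3 levels of these genes. PLAU stood at 10361 ± 719 normalised counts per kilobase, TIMP1 at 7794 ± 3061, MMP14 at 6786 ± 1418 and TIMP2 at 2247 ± 91.3 (SD, n = 3 each). The wide spread of TIMP1 overlapped with those of PLAU and MMP14, which lay apart from each other, and TIMP2 lay below all 3. MMP1 at 332 ± 157 and TIMP3 at 111 ± 11.5 normalised counts per kilobase were well below TIMP2. MMP3 at 4.90 ± 0.68 and MMP2 at 0.624 ± 0.405 were near the minimum of the file. At 10 µM TIMP3, at 44.0 ± 3.71, stood above MMP1, at 15.9 ± 3.69 normalised counts per kilobase, the reverse of their order in vehicle.

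**Figure D1:**
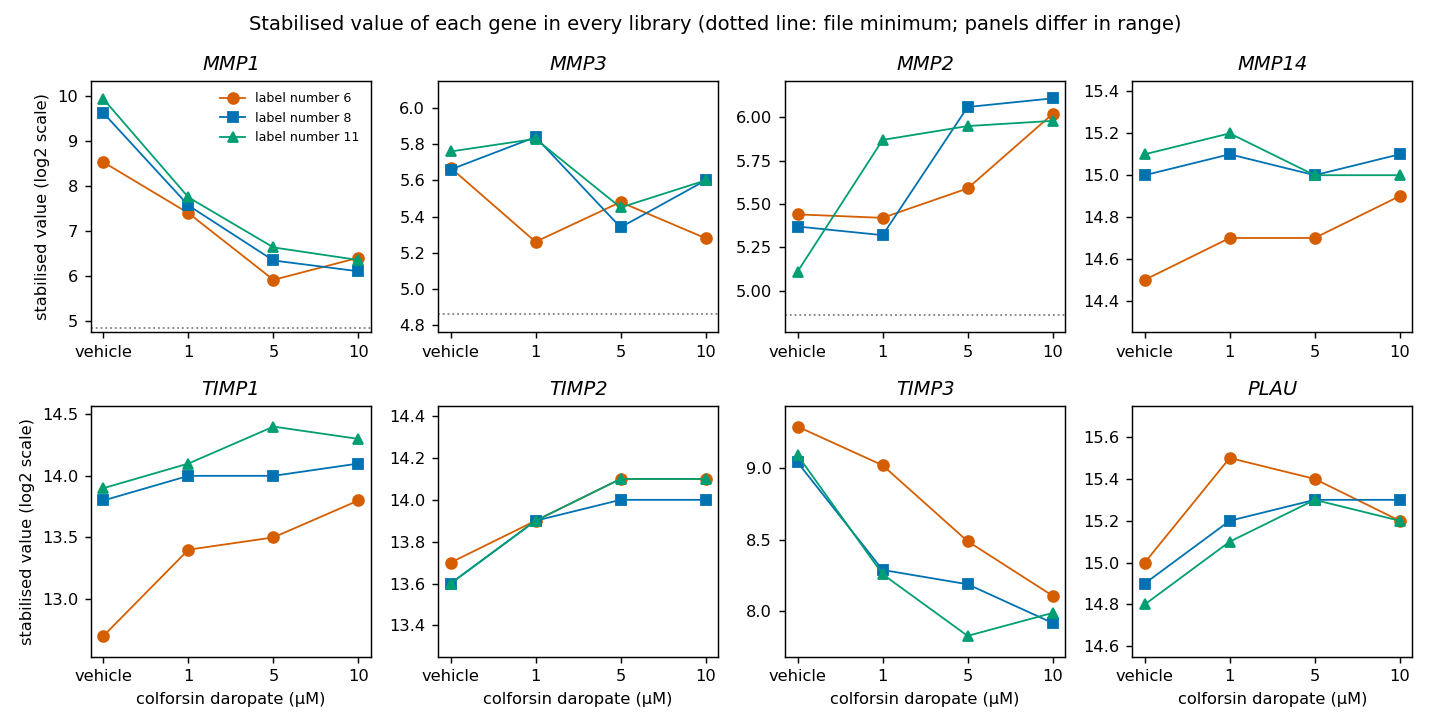
Stabilised value (log2 scale) of each of the 8 genes in every library against dose, with 1 line for each label number; the dotted line marks the file minimum of 4.86 and the panels differ in range. MMP1 drops in all 3 lines, TIMP3 drops, TIMP2 climbs by steps, and the orange line (label number 6) lies apart from the others for MMP14, TIMP1 and TIMP3.

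MMP1 showed the widest response of the 8 genes at each dose. MMP1 (ENSG00000196611, chromosome 11, 102789920 to 102798160, minus strand, GRCh38) had stabilised values of 8.53, 9.62 and 9.93 in vehicle, 7.40, 7.57 and 7.75 at 1 µM, 5.92, 6.35 and 6.64 at 5 µM and 6.41, 6.11 and 6.36 at 10 µM. The vehicle, 1 µM and pooled higher-dose libraries formed 3 ranges that did not overlap, and 5 and 10 µM overlapped. Mean normalised counts were 654 ± 309 in vehicle, and 138 ± 22.7, 33.4 ± 16.9 and 31.4 ± 7.27 at 1, 5 and 10 µM (SD, n = 3). Counts at the doses were thus 4.75-fold, 19.6-fold and 20.8-fold lower than in vehicle. On the stabilised scale MMP1 differed from vehicle by -1.79 at 1 µM, -3.06 at 5 µM and -3.07 at 10 µM, each with a standard error of 0.30. The adjusted p over all 17767 genes tested with limma was 0.0132, 9.1e-05 and 6.2e-05 in that order. Only 15, 42 and 52 reads were left at 5 µM and 30, 24 and 35 at 10 µM. The lowest MMP1 value, 5.92, was 1.06 above the file minimum, where the scale flattens and differences are compressed. On recovered reads, voom gave log2 differences from vehicle of -2.21, -4.33 and -4.35 at 1, 5 and 10 µM. In these bulk libraries, fewer cells with the transcript and less transcript per cell cannot be told apart.

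Between treated groups, MMP1 was 1.28 lower at 10 µM than at 1 µM (difference -1.28, adjusted p = 0.0358, limma), in a comparison where 2.17% of all genes were called higher and 2.54% lower. Between 5 and 1 µM the difference was -1.27 with no call (adjusted p = 0.135, and 0.00607 with the label number as a block in the fit). The difference between 10 and 5 µM was -0.01, with a 95% interval of -0.67 to 0.65. The call at 1 µM against vehicle was lost without vehicle library 8 (difference -1.66, adjusted p = 0.0702), vehicle library 11 (-1.50, 0.0510) or 1 µM library 8 (-1.78, 0.0590), limma. By label number the 10 µM differences were -2.12, -3.51 and -3.57 for 6, 8 and 11, and the vehicle library of number 6 was the lowest of the 3.

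An overlapping gene moved with MMP1. WTAPP1, a transcribed pseudogene on the opposite strand, spans MMP1 and reaches into MMP3, and 150 of the 1970 exon bases of MMP1 are shared with it. Its reads were 30, 115 and 157 in vehicle, 18, 32 and 23 at 1 µM, 0, 5 and 9 at 5 µM and 1, 2 and 5 at 10 µM. WTAPP1 fell by 1.84 at 5 µM and fell by 1.85 at 10 µM on the stabilised scale (adjusted p = 6.1e-04 and 3.4e-04, limma). At 1 µM its difference was -0.98 (adjusted p = 0.0655, and 0.00167 with the label number as a block). The strand setting of the counting is not given in the sources used here, so reads of the pair may not be separable. The count of WTAPP1 was 0% to 23.4% of that of MMP1 in each library.

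MMP1 lies in a cluster of 9 MMP genes on chromosome 11, of which only MMP3 (stromelysin, which cuts proteoglycans and activates the MMP1 precursor) was also analysed. MMP7, MMP8, MMP10, MMP12, MMP13, MMP20 and MMP27 were not analysed here. MMP3 (ENSG00000149968, chromosome 11, 102835801 to 102843803, minus strand) was near the minimum in all 12 libraries. Its reads were 6, 10 and 14 in vehicle, 2, 14 and 13 at 1 µM, 5, 4 and 5 at 5 µM and 2, 8 and 8 at 10 µM. Scaled for depth, the stabilised values were 5.66 to 5.76 in vehicle, 5.26 to 5.84 at 1 µM, 5.34 to 5.48 at 5 µM and 5.28 to 5.6 at 10 µM, so the 2 higher doses lay under vehicle and 1 µM overlapped with it. In summed reads scaled for depth, the ratio to vehicle was 1.00 at 1 µM (95% interval 0.580 to 1.73), 0.430 at 5 µM (0.211 to 0.837) and 0.620 at 10 µM (0.325 to 1.15). These intervals cover counting error only. MMP3 did not pass the filter on low values and was not tested. Without that filter its adjusted p was 0.919, 0.297 and 0.405 at 1, 5 and 10 µM (limma).

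MMP2 was near the minimum in vehicle and was called higher at 5 and 10 µM. It entered the test only through treated libraries: 6 of 12 libraries passed the filter of 5.86, none of them vehicle, so it had to differ to be tested. MMP2 (ENSG00000087245, chromosome 16, 55389700 to 55506691, plus strand) had 3, 4 and 1 reads in vehicle, 4, 3 and 14 at 1 µM, 7, 27 and 18 at 5 µM and 16, 24 and 19 at 10 µM. Every library at 5 and 10 µM was above every vehicle library, and the 1 µM libraries overlapped with vehicle. Summed over libraries there were 8 reads in vehicle, and 21, 52 and 59 at the 3 doses. Scaled for depth, the doses had ratios to vehicle of 2.72 (95% interval 1.16 to 7.10), 5.99 (2.83 to 14.6) and 7.61 (3.62 to 18.5), for counting error only. MMP2 stood 0.23, 0.56 and 0.73 above vehicle on the stabilised scale at 1, 5 and 10 µM, each with a standard error of 0.17 (adjusted p = 0.557, 0.0414 and 0.00853, limma). The call at 5 µM was lost when any 1 of 6 libraries was left out, namely numbers 8 and 11 of vehicle, 5 µM and 10 µM, with adjusted p between 0.0563 and 0.147. The call at 10 µM was kept in all 12 such fits. With no filter on low values the adjusted p was 0.0442 at 5 µM and 0.00889 at 10 µM, and under a stricter filter MMP2 was not tested. At 1 µM, 14 of the 21 reads came from library 11, and without that library the difference was 0.063.

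MMP14 had no call at any dose and ranked among the most abundant transcripts of the cells. MMP14 (ENSG00000157227, chromosome 14, 22836557 to 22849027, plus strand) had stabilised values of 14.5, 15.0 and 15.1 in vehicle, 14.7, 15.1 and 15.2 at 1 µM, 14.7, 15.0 and 15.0 at 5 µM and 14.9, 15.1 and 15.0 at 10 µM. The groups overlapped, and label number 6 was lowest in each. Its median value stood at the 99.4th percentile of all genes, a ranking that does not allow for length. MMP14 stood 0.13 above vehicle at 1 µM (95% interval -0.24 to 0.50), 0.03 at 5 µM (-0.34 to 0.40) and 0.13 at 10 µM (-0.24 to 0.50). The adjusted p was 0.766, 0.928 and 0.622 (limma), which does not show that MMP14 was the same in the groups. Without vehicle library 6 the 3 differences were -0.05, -0.15 and -0.05.

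**Figure D2:**
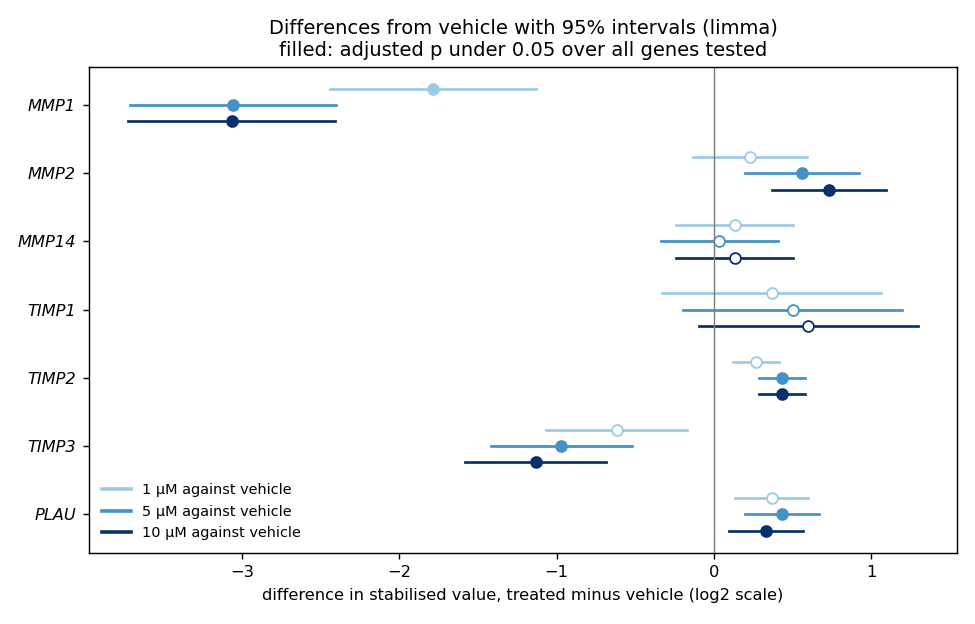
Difference in stabilised value, treated minus vehicle (log2 scale), for the 7 genes tested, with 95% intervals from limma; filled points have an adjusted p under 0.05 over all genes. MMP1 lies furthest to the left at -1.79, -3.06 and -3.07, TIMP3 is next, and TIMP1, TIMP2, PLAU, MMP2 and MMP14 lie to the right of 0. TIMP1 and MMP14 have no filled point.

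The inhibitors did not share a direction. TIMP3 fell and TIMP2 rose at 5 and 10 µM, and TIMP1 had no call without the label number in the fit. TIMP3 (ENSG00000100234, chromosome 22, 32801701 to 32863043, plus strand) had stabilised values of 9.29, 9.04 and 9.09 in vehicle, 9.02, 8.29 and 8.26 at 1 µM, 8.49, 8.19 and 7.83 at 5 µM and 8.11, 7.92 and 7.99 at 10 µM. Every treated library was below every vehicle library, and label number 6 was the highest in each group. Normalised counts were 509 ± 52.8 in vehicle, and 324 ± 120, 238 ± 65.3 and 203 ± 17.1 at 1, 5 and 10 µM (SD, n = 3). The 10 µM mean was 39.8% of the vehicle mean. The stabilised difference was -0.97 at 5 µM and -1.13 at 10 µM, each with a standard error of 0.21 (adjusted p = 0.00880 and 0.00249, limma). At 1 µM it was -0.62 (adjusted p = 0.160, and 0.00946 with the label number as a block).

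TIMP2 had the least spread of these genes. TIMP2 (ENSG00000035862, chromosome 17, 78852977 to 78925387, minus strand) had stabilised values of 13.7, 13.6 and 13.6 in vehicle, 13.9 in all 3 libraries at 1 µM, and 14.1, 14 and 14.1 at both 5 and 10 µM. No treated library overlapped with vehicle, and 1 µM lay between vehicle and the higher doses. The normalised count at 10 µM was 17110 ± 679, against 12656 ± 515 in vehicle (SD, n = 3), or 1.35-fold higher. The stabilised difference was 0.43 at 5 and at 10 µM, with a standard error of 0.07 (adjusted p = 0.00170 and 0.00102, limma). At 1 µM it was 0.27 (adjusted p = 0.0725, and 0.00842 with the block). Since values here move in steps of 0.1, these differences span only a few rounding steps.

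TIMP1 differed more between label numbers than between doses. TIMP1 (ENSG00000102265, chromosome X, 47582313 to 47586789, plus strand) had stabilised values of 12.7, 13.8 and 13.9 in vehicle, 13.4, 14 and 14.1 at 1 µM, 13.5, 14 and 14.4 at 5 µM and 13.8, 14.1 and 14.3 at 10 µM. The groups overlapped, and label number 6 was the lowest in each. Within every label number, each treated library was above its own vehicle library. The difference from vehicle was 0.37, 0.50 and 0.60 at 1, 5 and 10 µM, with a standard error of 0.32 (adjusted p = 0.641, 0.339 and 0.205, limma). With the label number as a block, the adjusted p was 0.0729, 0.00856 and 0.00211. By label number the 10 µM differences were 1.10, 0.30 and 0.40 for 6, 8 and 11. Leaving out vehicle library 6 gave -0.017, 0.12 and 0.22 at 1, 5 and 10 µM.

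PLAU had the highest group mean of these genes per kilobase in every group, although TIMP1 was above it in label number 11 in vehicle and at 5 and 10 µM. PLAU rose at 5 and 10 µM by a small amount. PLAU (ENSG00000122861, chromosome 10, 73909177 to 73917497, plus strand) had stabilised values of 15.0, 14.9 and 14.8 in vehicle, 15.5, 15.2 and 15.1 at 1 µM, 15.4, 15.3 and 15.3 at 5 µM and 15.2, 15.3 and 15.2 at 10 µM. Every treated library was above every vehicle library, and the treated groups overlapped. Its counts, normalised, were 30565 ± 2121 in vehicle, and 39642 ± 5887, 41249 ± 1672 and 38483 ± 1560 at the doses (SD, n = 3). PLAU stood 0.37, 0.43 and 0.33 above vehicle on the stabilised scale at 1, 5 and 10 µM, with a standard error of 0.11 (adjusted p = 0.114, 0.0191 and 0.0437, limma). With the block, the adjusted p at 1 µM was 0.0111. The call at 5 µM was lost without vehicle library 8 (0.0606), vehicle library 11 (0.0794) or 5 µM library 6 (0.0657). The call at 10 µM was lost in 9 of 12 fits that left out 1 library, with adjusted p from 0.0509 to 0.149. It was kept without vehicle library 6, 1 µM library 6 or 1 µM library 11.

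PLAU also shares bases with a gene on the other strand, C10orf55, which covers 916 of its 2950 exon bases (31.1%). The count of C10orf55 was 23.2% to 24.9% of the count of PLAU in each of the 12 libraries. C10orf55 was higher by 0.40 at 1 µM, 0.43 at 5 µM and 0.37 at 10 µM (adjusted p = 0.0428, 0.00678 and 0.0109, limma), near the differences of PLAU. With the strand setting not given, it is not known how far the reads of the pair are separated. The genes analysed that overlap the inhibitors were low: SYN1 had at most 0.305% of the count of TIMP1, and CEP295NL at most 0.161% of that of TIMP2. SYN3, which spans TIMP3 on the opposite strand, was not analysed here.

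**Figure D3:**
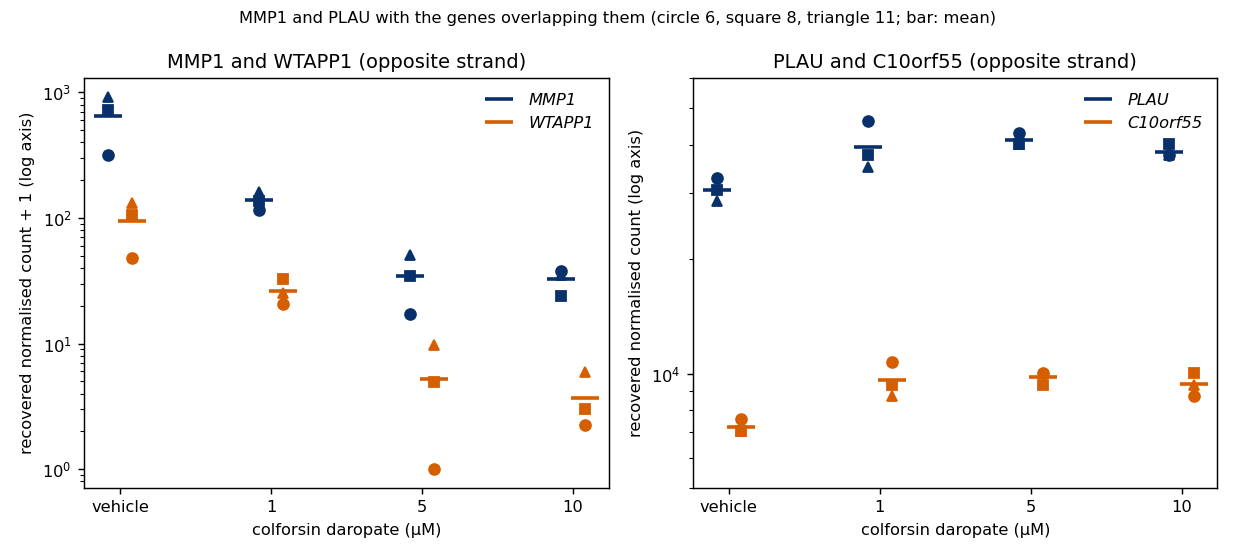
Recovered normalised counts (log axis; 1 is added in the left panel) of MMP1 with WTAPP1 and of PLAU with C10orf55 against dose; symbols are libraries and bars are group means. WTAPP1 descends with MMP1, and C10orf55 stays at 23.2% to 24.9% of PLAU.

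Of the 7 genes tested, 1 was called at 1 µM (MMP1, lower), where 1.18% of all genes were called higher and 0.613% lower. At 5 µM 5 were called, MMP2, TIMP2 and PLAU higher and MMP1 and TIMP3 lower, where 7.67% of all genes were called higher and 7.44% lower. The same 5 were called at 10 µM, where 11.2% were higher and 11.4% lower. Under a stricter filter, which leaves MMP2 out, the calls at 5 and at 10 µM were 4 of 6. Same-numbered libraries deviated together, although numbers 8 and 11 also did so with each other. The fit with the label number as a block is therefore set beside this. It called 4 of 7 at 1 µM (MMP1, TIMP2, TIMP3 and PLAU), with 6.76% of all genes higher and 5.26% lower. It called 6 of 7 at 5 µM, where 15.3% of all genes were higher and 15.3% lower, and 6 of 7 at 10 µM, where 18.7% were higher and 19.7% lower. The sixth gene was TIMP1. Nothing is read from these counts against the background, since the genes were picked with the same contrasts known. Over dose rank the slope per step was -1.05 for MMP1, -0.38 for TIMP3, 0.25 for MMP2 and 0.15 for TIMP2 (adjusted p = 1.5e-04, 9.7e-04, 0.00193 and 0.00107, limma). It was not called for TIMP1 (0.19, adjusted p = 0.146), PLAU (0.11, 0.08) or MMP14 (0.03, 0.709). With the block, TIMP1 and PLAU were called (adjusted p = 0.00204 and 0.0397). Over all genes, 13% had a called rising slope and 13.5% a falling one.

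The label numbers themselves, which were not used to choose the genes, divided them. Number 6 is set apart because earlier results of these libraries showed it apart. The tests of number 6 below therefore describe these libraries and are not independent support. Across doses, label number 6 was set against the mean of numbers 8 and 11 in a fit with dose group, in which 19.1% of all genes were called higher and 19.9% lower in number 6. Of the 7 genes, 4 were called. TIMP1 was lower in number 6 by a difference of -0.725 ± 0.09 (SE), MMP1 by -0.48 ± 0.16 and MMP14 by -0.36 ± 0.06, and TIMP3 was higher by 0.40 ± 0.10 (adjusted p = 1.0e-04, 0.0350, 9.0e-04 and 0.00630, limma). MMP2, TIMP2 and PLAU had no call (adjusted p = 0.529, 0.353 and 0.0837). The libraries of number 6 were also the shallowest, at 23.9 to 34.6 megareads against 36.9 to 48.3 in the others. The part of depth in these differences was not tested. The slope over dose in number 6 differed from that in numbers 8 and 11 for 3.21% of all genes and for 0 of the 7. Unadjusted, 2 of the 7 had a p under the threshold: TIMP1, steeper by 0.22 per dose step in number 6 (adjusted p = 0.0796), and MMP14, by 0.14 (adjusted p = 0.181, limma).

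Bases before the start sites are shown for the genes with a call at 5 and 10 µM that the RefSeq promoter table (GRCh38.p14) holds, PLAU and TIMP3, and for TIMP1, which was called only with the block. Capitals mark matches, on either strand, to the GC box GGGCGG (the site bound by Sp1) or to TGACG, the short form of the cyclic AMP response element TGACGTCA. Each stretch is the 250 bases up to an annotated start on the plus strand.
TIMP3, chr22:32801455-32801704: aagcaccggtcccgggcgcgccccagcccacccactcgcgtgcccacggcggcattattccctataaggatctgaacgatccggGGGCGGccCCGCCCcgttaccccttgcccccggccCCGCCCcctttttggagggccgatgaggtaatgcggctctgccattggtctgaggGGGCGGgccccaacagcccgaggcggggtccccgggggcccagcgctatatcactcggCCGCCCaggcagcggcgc
PLAU, second start, chr10:73910882-73911131: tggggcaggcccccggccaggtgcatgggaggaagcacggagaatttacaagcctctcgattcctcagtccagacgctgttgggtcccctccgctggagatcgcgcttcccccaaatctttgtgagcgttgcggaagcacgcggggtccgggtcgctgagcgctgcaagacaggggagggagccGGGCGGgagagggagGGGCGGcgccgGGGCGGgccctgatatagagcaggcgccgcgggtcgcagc
TIMP1, chrX:47582186-47582435: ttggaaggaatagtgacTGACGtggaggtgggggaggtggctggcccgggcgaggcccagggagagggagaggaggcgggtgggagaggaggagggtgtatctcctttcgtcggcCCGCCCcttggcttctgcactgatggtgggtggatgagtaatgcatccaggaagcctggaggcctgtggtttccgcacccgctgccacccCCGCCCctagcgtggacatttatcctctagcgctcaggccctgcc
TIMP3 held 5 GC boxes, the second start of PLAU held 3 and TIMP1 held 2. The first annotated start of PLAU, not printed, held 0 matches to any of these letters, and MMP14 held 1 GC box. TIMP1 also held TGACG at base -233 from its start. Neither the full response element nor the AP-1 site TGANTCA, a known element of MMP promoters, matched at the starts of TIMP1, TIMP3, PLAU and MMP14. The search covered the 300 bases from 250 before to 50 after each start. Only these exact letters were searched, so sites that differ from them by a base would not be found. In MMP10, whose expression was not analysed here, TGANTCA matched at base -67. The GC box occurs in 45.0% of all 35116 promoters of that length, TGACG in 24.6%, TGANTCA in 7.71% and TGACGTCA in 1.85%. A match here is a description of letters only.

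Related genes at 10 µM are read beside the shares over all genes tested, 11.2% higher and 11.4% lower. Of 8 other MMPs tested at 10 µM, MMP9 (a gelatinase) fell by 1.40 on the stabilised scale and MMP15 (a membrane-type protease) rose by 0.57 (adjusted p = 0.0263 and 0.0358, limma). The other 6 had no call, so each direction held 1 of 8, near the shares over all genes, and the list median was 0.19 beside 0 for all genes. MMP9 had normalised counts of 82.5, 40.6 and 47.0 at 10 µM, against 435, 128 and 183 in vehicle. MMP15 was low, at 48.2, 48.8 and 65.3 normalised counts at 10 µM against 12.5, 36.8 and 25.6 in vehicle. By label number its 10 µM differences were 0.82, 0.21 and 0.69 for 6, 8 and 11. Of the 3 other inhibitors listed, TIMP4, RECK (a membrane-anchored MMP inhibitor) and A2M, 0 were called at 10 µM. Their differences were -0.35, 0.23 and 0.20. Unadjusted, 1 of the 3, RECK, had a p under the threshold (adjusted p = 0.130, and 0.0285 with the block, limma).

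In the plasminogen system, 2 of 10 genes tested at 10 µM were called higher and 3 lower (11.2% and 11.4% over all genes), with a list median of -0.12. PLAT, tissue plasminogen activator and the other enzyme that makes plasmin, rose by 2.19 (adjusted p = 1.1e-04). Its normalised counts were 4985, 4647 and 5347 at 10 µM, against 1725, 822 and 798 in vehicle, with no overlap. ST14, the membrane protease matriptase, which can activate the urokinase precursor, stood 0.48 above vehicle (adjusted p = 0.0311). Its vehicle libraries, at 5.54 to 5.69, lay under the filter, so ST14 too was tested only through treated libraries. SERPINE2, a plasminogen activator inhibitor also called protease nexin, fell by 0.70, and S100A10, a cell-surface plasminogen receptor subunit, fell by 0.70 (adjusted p = 4.6e-04 and 0.00917). ANXA2, the partner of S100A10, fell by 0.43 (adjusted p = 0.0254). ANXA2 and the urokinase receptor PLAUR are named after their values were seen. At 10 µM PLAUR stood 0.50 above vehicle on the stabilised scale (adjusted p = 0.0587, and 1.6e-04 with the block).

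Among 10 MMP activators and surface partners, 3 rose and 1 fell at 10 µM, beside 11.2% and 11.4% over all genes. ITGB3, the integrin chain that pairs with the alpha-v chain, fell by 2.17, with normalised counts of 1606, 2464 and 3046 at 10 µM against 9352, 10751 and 11527 in vehicle. The tight junction protein CLDN1 rose by 1.03, the hyaluronan receptor CD44 by 0.80 and BSG, the surface protein known as an inducer of MMPs, by 0.63. The adjusted p was 4.2e-04, 0.00684, 0.0318 and 6.3e-04 in that order (limma). The median of this list was 0.14.

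In the next 3 lists too, calls stand beside 11.2% higher and 11.4% lower over all genes. Of 8 ADAM sheddases tested, ADAM12 rose by 1.88 and ADAM19 by 0.43, and ADAM15 fell by 0.40 at 10 µM (adjusted p = 0.00112, 0.0320 and 0.0219, limma). By label number the ADAM19 differences were -0.1, 0.7 and 0.7 for 6, 8 and 11, and its groups overlapped. Of 12 ADAMTS proteases, 3 rose and 2 fell. The proteoglycan-cutting ADAMTS5 rose by 3.19 and ADAMTS12 by 1.17, and ADAMTS16 fell by 1.13 and ADAMTS9 by 0.90 (adjusted p = 0.0214, 0.00189, 0.00427 and 0.0212). By label number the ADAMTS9 differences were -0.1, -1.3 and -1.31 for 6, 8 and 11. ADAMTS5 had 3508, 752 and 730 normalised counts at 10 µM, against 366, 35.8 and 36.3 in vehicle; label number 6 was the highest in both groups. The third that rose, ADAMTS7, did so by 0.54 (adjusted p = 0.0492) and is named after its value was seen. Of 13 AP-1 and ETS factors, the families that bind many MMP and PLAU promoters, 2 rose and 3 fell. FOSL2 rose by 0.83 and JUND by 0.51, and ETS1 fell by 0.83 and FOSL1 by 0.80 (adjusted p = 6.3e-04, 0.0184, 0.00843 and 3.6e-04). ELK3, named after its value was seen, fell by 0.40 (adjusted p = 0.0206). With the label number as a block, 18.7% of all genes were called higher and 19.7% lower at 10 µM. In the plasminogen system 4 were then higher and 4 lower, among activators and partners 5 and 2, among ADAM sheddases 5 and 2, among ADAMTS proteases 3 and 3, among AP-1 and ETS factors 5 and 3, among other MMPs 2 and 1, and among other inhibitors 1 and 0.

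**Figure D4:**
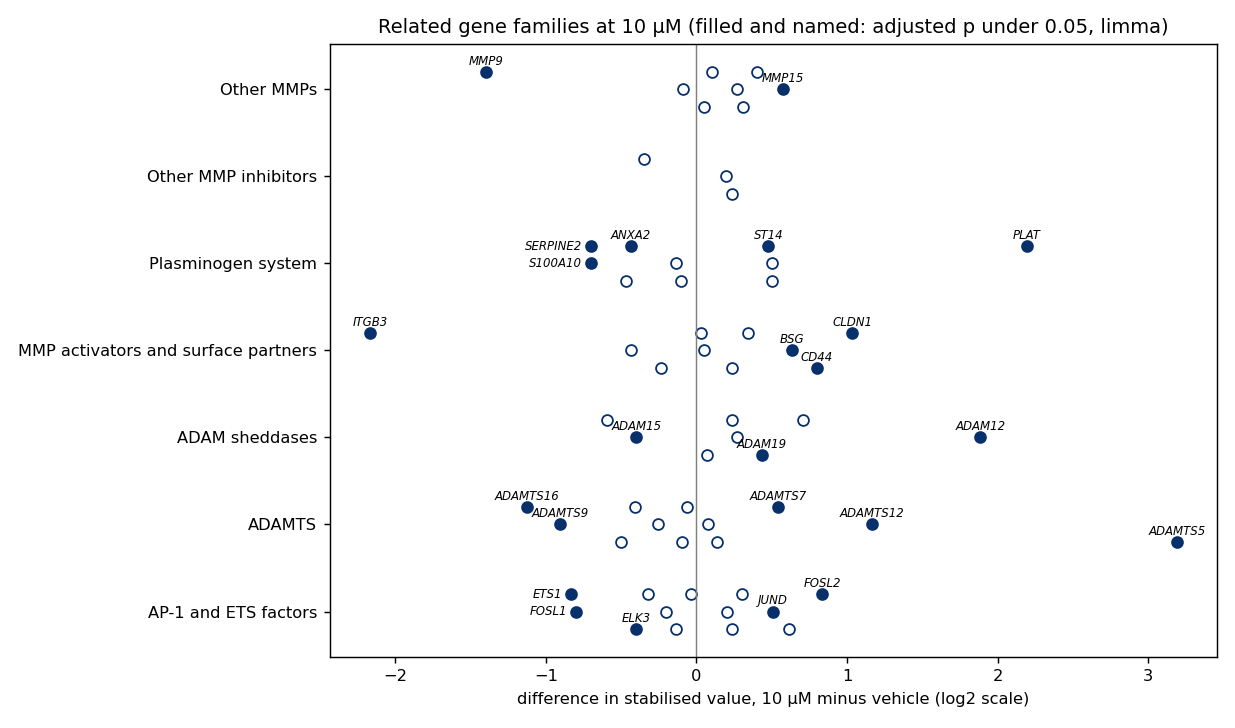
Difference in stabilised value at 10 µM minus vehicle (log2 scale) for each tested gene of 7 related lists; filled, named points have an adjusted p under 0.05 (limma) and vertical offsets only separate points. PLAT, ADAM12 and ADAMTS5 lie furthest to the right at 2.19, 1.88 and 3.19, and ITGB3 and MMP9 furthest to the left at -2.17 and -1.40.

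By Pearson correlation of stabilised values over the 12 libraries, the genes most like MMP1 among 17736 others were IL32 (r = 0.991), WTAPP1 (0.988) and EPB41L4A-AS1 (0.986). For TIMP3 they were BMAL2 (0.979), ADGRG6 (0.975) and FERMT1 (0.972). For TIMP2 they were SHISA2, ZBTB38 and TMEM50A (0.983, 0.982 and 0.982), and for TIMP1 CEBPB (0.972) led. MMP14 was most like EMC1 (0.971) and PLAU most like C10orf55 (0.967), then ABCB1 (0.953). MMP2 was most like SPATA17 (0.951). Among the genes themselves, MMP1 ran against TIMP2 (r = -0.963, and -0.982 with label number means removed) and with TIMP3 (0.776, and 0.936). Other pairs were stronger than MMP1 with TIMP3 before that removal. Among them were MMP14 with TIMP1 (0.865, and 0.611 after it), MMP1 with PLAU (-0.836, and -0.839) and TIMP2 with TIMP3 (-0.832, and -0.964). These values describe 12 libraries that share doses and label numbers, and many genes follow dose.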

How the data were processed

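The authors deposited 1 table of variance-stabilised values on a log2 scale for 12 libraries of total RNA, which was depleted of ribosomal RNA per the labels' protocols. The submitters' processing notes name DESeq2 and the build GRCh38 (hg38). Aligner, counter, strand setting, annotation and gene filter are not given in the sources used here. There were 21207 genes, and 4 entries that name no gene (no feature, ambiguous, not aligned, alignment not unique) were left out. The ambiguous entry held 2.40% to 2.94% of all reads in each library. Genes took 33.9% to 36.7% of all reads. A symbol was found for 21166 genes (99.8%), and positions come from GENCODE 29 (GRCh38). The libraries were already scaled to each other in the deposited values (median 8.21 to 8.29), so changes are relative to other genes and total RNA per cell is not visible.

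The genes, lists and tests were chosen with earlier results of these data known. Reads were recovered by inverting the stabilising curve: 100% of the 59509 values under 6 lay within 0.006 of a step of whole reads, against 33.9% with the size factor of another library. The test was a limma 3.58.1 model (R 4.3.3) of 4 dose groups with a variance trend, on genes more than 1 above the minimum (5.86) in 3 or more libraries (17767 genes). A gene was called where its two-sided p, adjusted by Benjamini-Hochberg over all of these, was under 0.05. Same-numbered libraries deviated together from their group means (18 correlations, 0.316 to 0.777, median 0.486). Differently numbered ones ran from -0.711 to 0.569. Numbers 8 and 11 also deviated together across groups, from 0.199 (5 µM library 11 with 10 µM library 8) to 0.569 (vehicle library 8 with 1 µM library 11). Within a group the deviations cancel out, so where number 6 stands apart, numbers 8 and 11 are drawn together to the other side. Part of this sharing is thus built into the measure. The check thus sets number 6 apart and does not separate number 8 from number 11. The meaning of the number is not given in the labels. Per the design text a group's libraries are biological replicates; p-values measure the spread between them.

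Of each list, the text names the called genes with the largest difference at 10 µM, at most 4, and for each tested member the genes with the highest correlation, up to 3. Alternatives were the block, sample weights, quantile normalisation, other filters, only 2 groups, voom on recovered reads, and leaving out libraries or label numbers.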

Additional observations from a re-analysis of the deposited data

How the results depend on the processing

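At 1 µM the count of the 7 tested genes called was 1. It was 4 with the replicate block, 4 with array weights, 4 with voom on recovered reads and the block, and 4 without label number 6, with or without the block. It was 0 with only the 2 groups compared and 0 without label number 8 or 11, with or without the block. Leaving out 1 library gave 0 to 2. At 5 µM the count was 5, against 1 (MMP1) without label number 8 and 1 (MMP1) without number 11 (3 with the block), and 3 to 5 when 1 library was left out. At 10 µM it was 5, against 1 (MMP1) without number 8 and 2 (MMP1 and TIMP3) without number 11, and 4 to 5 when 1 library was left out. Fits without a whole label number have fewer libraries. The fits without a label number but with the block were chosen after seeing the data.

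The direction turned only for differences with no call. MMP2 at 1 µM was -0.035 without number 11, with or without the block. MMP14 at 5 µM was -0.034 with array weights and -0.05 without number 6. Leaving out 1 library gave -0.05 to 0.28 for MMP14 at 1 µM, -0.15 to 0.15 at 5 µM and -0.05 to 0.25 at 10 µM, and -0.017 to 0.58 for TIMP1 at 1 µM. Over the 7 genes and 3 doses, 275 of 333 values under the other settings and 223 of 252 under left-out libraries kept direction and call. Low read numbers limit MMP2 and MMP3, and MMP1 at 5 and 10 µM. Rounding to 0.1 limits MMP14, TIMP1, TIMP2 and PLAU.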
